A study of Homo sapiens with 52 samples.

Results

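HS578T cells transfected with the NRP1-targeting siRNA siNRP1#3 were compared with HS578T cells transfected with the non-targeting siRNA siNT, using 3 libraries of each group, that is 6 of the 52 libraries of the dataset. The libraries were chosen by cell line and siRNA as given in the sample labels. HS578T is an established human breast carcinoma cell line of the claudin-low subtype, a subtype with low levels of cell junction genes and a mesenchymal gene profile. All 6 cultures received 20 nM siRNA by lipid reverse transfection, and RNA was taken 72 h later. siNT was a single commercial negative control sequence and siNRP1#3 a single custom sequence, so a difference between both groups is a difference between these 2 siRNA sequences. The other HS578T siRNA group, siNRP1#5 (3 libraries), and siNRP1#3 against siNT in the claudin-low lines SUM159PT and MDA-MB-231 (6 libraries each) were used for comparison. siNRP1#5 also helped to estimate the spread between replicates, as did the lentiviral shRNA groups of HS578T. The siNT groups of MDA-MB-231 and SUM159PT and the shNT groups served to measure RNA of those lines in the HS578T libraries. The replicates were described as independent biological replicates of 1 cell line, and those of the shRNA groups were consecutive passages. The edgeR p-values for HS578T below thus measure a spread pooled over siRNA cultures and shRNA passages of this line.

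Neuropilin-1 (NRP1) is a cell surface glycoprotein that binds class 3 semaphorins and vascular endothelial growth factors. It has a short cytoplasmic tail and acts as a co-receptor, with plexins for semaphorins and with receptor tyrosine kinases for growth factors. Alternative transcripts that end before the transmembrane exon encode secreted, soluble forms, which keep the ligand binding domains and can hold ligands away from the cell surface. An siRNA acts through its antisense (guide) strand, which directs cleavage of a fully matched mRNA. Guide bases 2 to 8, the seed, can also pair with short matches in the 3′UTR of other mRNAs and lower their level, as a microRNA does.

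The siRNA target sites are shown because they decide which NRP1 transcripts can be cleaved. In GRCh38 the siNRP1#3 site was chr10:33185638-33185656 on the minus strand, in coding exon 15 of the transcript NRP1-206. It was present in 4 of the 14 NRP1 transcripts of GENCODE v44. The siNRP1#5 site was chr10:33263779-33263797 on the same strand, in coding exon 4, and was present in 9 of the 14. Below, transcripts with both sites are called transmembrane and those with the siNRP1#5 site only soluble. These classes rest on the sites alone, and whether each transcript encodes a transmembrane region was not tested. Each site is given with 21 flanking bases of the mRNA on either side, the 19 bases of the siRNA in capitals.
siNRP1#3 site: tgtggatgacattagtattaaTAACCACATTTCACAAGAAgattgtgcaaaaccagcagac
siNRP1#5 site: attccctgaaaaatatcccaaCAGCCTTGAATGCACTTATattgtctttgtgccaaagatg
The antisense strands follow, with the seed in capitals.
siNRP1#3 antisense: uUCUUGUGaaaugugguua
siNRP1#5 antisense: aUAAGUGCauucaaggcug
The heptamer that pairs with the seed is CACAAGA for siNRP1#3 and GCACTTA for siNRP1#5.

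Expected counts per library added up to between 25310442 and 43161041 in siNRP1#3 and between 30001712 and 42273996 in siNT. Both groups carried low levels of transcripts that mark MDA-MB-231. Over 93 markers (at most 0.5 CPM in HS578T shNT and at least 20 CPM in MDA-MB-231 shNT, CPM being TMM-normalised counts scaled to the library total), the median level was 2.76, 3.39 and 7.34% of the MDA-MB-231 siNT level in siNRP1#3 replicates 1 to 3 and 0.743, 1.26 and 2.41% in siNT. The summed marker level was 172 to 402 CPM in siNRP1#3 and 45.2 to 136 CPM in siNT, against 5472 CPM in MDA-MB-231 siNT, and no marker was at 0 in any of the 6 libraries. The share was 14.3 to 24.3% in siNRP1#5 and at most 0.522% in the shRNA libraries of HS578T. For each gene that rose, the level that such a share of MDA-MB-231 RNA would bring was therefore set against the rise. Below, 3 values in a row are CPM of replicates 1, 2 and 3, and fold changes are siNRP1#3 over siNT from edgeR's quasi-likelihood test, adjusted over 19661 genes. Where a gene lost its call with a library left out, "at most" gives the highest adjusted p of those fits.

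NRP1, the target, fell in HS578T with siNRP1#3. Its gene level was 36.8, 44.4 and 46.5 CPM in siNRP1#3 and 100.2, 85.5 and 108 CPM in siNT, so that the groups did not overlap (log2 fold change -1.2, SE 0.248, edgeR adjusted p = 0.0101). Without siNRP1#3 replicate 1 the adjusted p was 0.0683, and without both replicate 3 libraries it was 0.0744. After subtraction of the MDA-MB-231 share it was 0.448 in the fit of all HS578T groups and 0.015 with only siNRP1#3 and siNT fitted. The log2 fold change stayed between -1.23 and -1.21. The siNRP1#5 libraries, with a share of 14.3 to 24.3% and a mean NRP1 level of 15.5 CPM, entered only the former fit. In MDA-MB-231 siNT the NRP1 mean was 74.3 CPM, and the part of siNRP1#5 in the value of 0.448 was not tested. In the other cell lines the siNRP1#3 fold change of NRP1 was -2.1 (adjusted p = 0.000687) in SUM159PT and -0.70 (adjusted p = 0.00173) in MDA-MB-231, and in HS578T that of siNRP1#5 was -2.66 (adjusted p = 3.68e-05), all by edgeR.

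The more abundant transcripts that hold the siNRP1#3 site were lower in all siNRP1#3 libraries. The 4 transmembrane transcripts together had 0.44, 0.99 and 0.93 TPM (read density of a transcript scaled to the library) in siNRP1#3 and 15.1, 11.2 and 14.4 TPM in siNT, a difference of -4.0 on the log2(TPM + 0.1) scale (two-sided exact permutation test, p = 0.1, the smallest that 3 against 3 samples allow). NRP1-206, the most abundant of them, had 0.11, 0.46 and 0 TPM against 12.0, 9.38 and 12.0 TPM. In a quasi-likelihood test over 95852 transcripts, added after seeing the data, NRP1-206 fell (log2 fold change -5.94, SE 0.909, edgeR adjusted p = 0.0140). NRP1-207, the next transmembrane transcript, had 0.33, 0.46 and 0.82 TPM against 2.93, 1.23 and 2.04 TPM and did not pass that test (log2 fold change -2.03, edgeR adjusted p = 0.388).

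NRP1-201 and NRP1-208, the other transcripts with the site, were at most 0.63 TPM in any library, and their groups overlapped.

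The soluble transcripts, which lack the siNRP1#3 site, were not lower. Their sum was 15.7, 20.7 and 20.2 TPM in siNRP1#3 and 13.4, 9.5 and 11.6 TPM in siNT, a difference of 0.72 on the same log2 scale (exact permutation p = 0.1, and 0.2 without siNT replicate 2). NRP1-204, the main soluble form, had 13.5, 18.4 and 17.5 TPM against 11.3, 7.69 and 8.82 TPM, and all siNRP1#3 values were above all siNT values. It did not pass the transcript test (log2 fold change 0.74, edgeR adjusted p = 0.635). Its share of NRP1, the deposited isoform percent, was 74.7, 74.2 and 74.6% in siNRP1#3 and 31.5, 28.6 and 26.2% in siNT, a difference of 45.7 percentage points (exact permutation p = 0.1). NRP1-212, another transcript with the siNRP1#5 site only, had 1.02, 1.50 and 1.56 TPM against 1.76, 1.02 and 1.14 TPM, with overlapping groups. One short transcript without either site, NRP1-209, was also lower, with 0, 0.25 and 0.42 TPM against 3.64, 4.19 and 5.36 TPM, and did not pass the transcript test (log2 fold change -4.42, edgeR adjusted p = 0.162). It is 497 bases long and rests on 0 to 69.2 expected counts, and whether its reads are shared with longer transcripts was not tested.

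**Figure D1:**
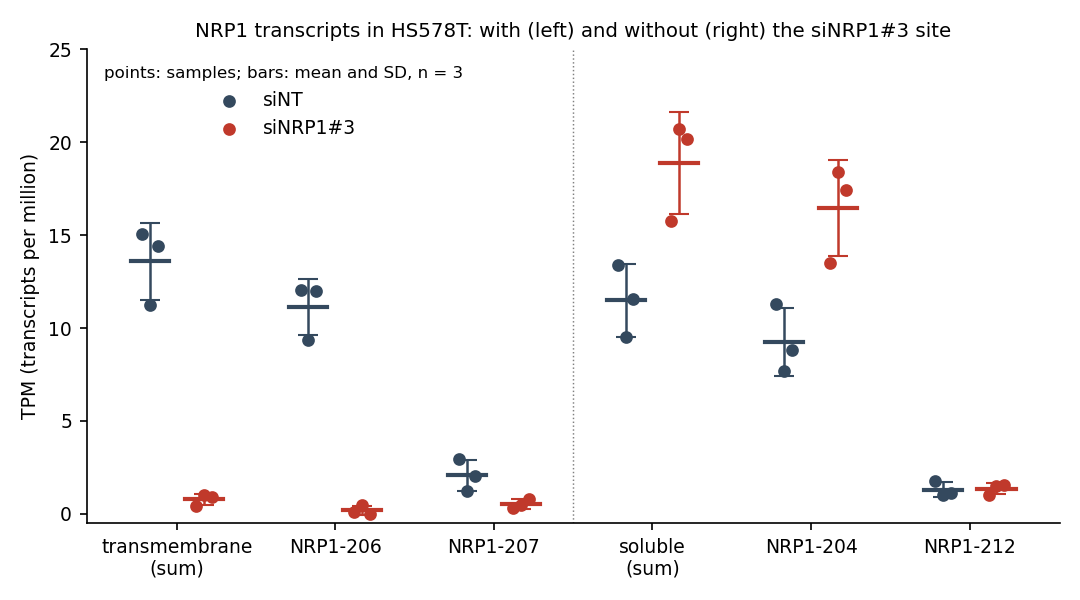
TPM of NRP1 transcripts in the 3 siNT (dark) and 3 siNRP1#3 (red) libraries of HS578T, with points for samples and bars for mean and SD. NRP1-206, NRP1-207 and the sum of transcripts with the siNRP1#3 site (left of the dotted line) sit between 0 and 0.99 TPM in siNRP1#3 and between 1.23 and 15.1 TPM in siNT, while NRP1-204 and the soluble sum are higher in all siNRP1#3 libraries.

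Across the transcriptome, 914 of 19661 genes (4.65%) differed between siNRP1#3 and siNT at an adjusted p under 0.05 (edgeR), with 454 higher (2.31%) and 460 lower (2.34%). A change of at least 2-fold was found for 389 of the higher and 359 of the lower genes. Protein-coding genes made up 362 of the higher and 387 of the lower genes. Without overlap of the 3 against 3 values were 908 of the 914 called genes, and 5119 of all genes tested (26%). The number of calls was lowest without siNRP1#3 replicate 1 (317) and without siNT replicate 2 (375), and the other 4 libraries left out in turn gave 452 to 691. Of the 454 higher genes, the share of MDA-MB-231 RNA would bring at most 25% of the rise for 409, 25 to 50% for 17 and over 50% for 28, and 12 of the 93 markers were among the higher genes. Among the 28 were UNC13D, a vesicle priming factor of cytotoxic granules (1.92 (SE 0.346, edgeR adjusted p = 0.00454)), and ANXA3, an annexin (2.18 (SE 0.452, edgeR adjusted p = 0.0105)). After subtraction of the share, the adjusted p was 0.386 for UNC13D and 0.0831 for ANXA3. ANXA3 also lost its call without siNT replicate 1 or 2 (at most 0.064).

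**Figure D2:**
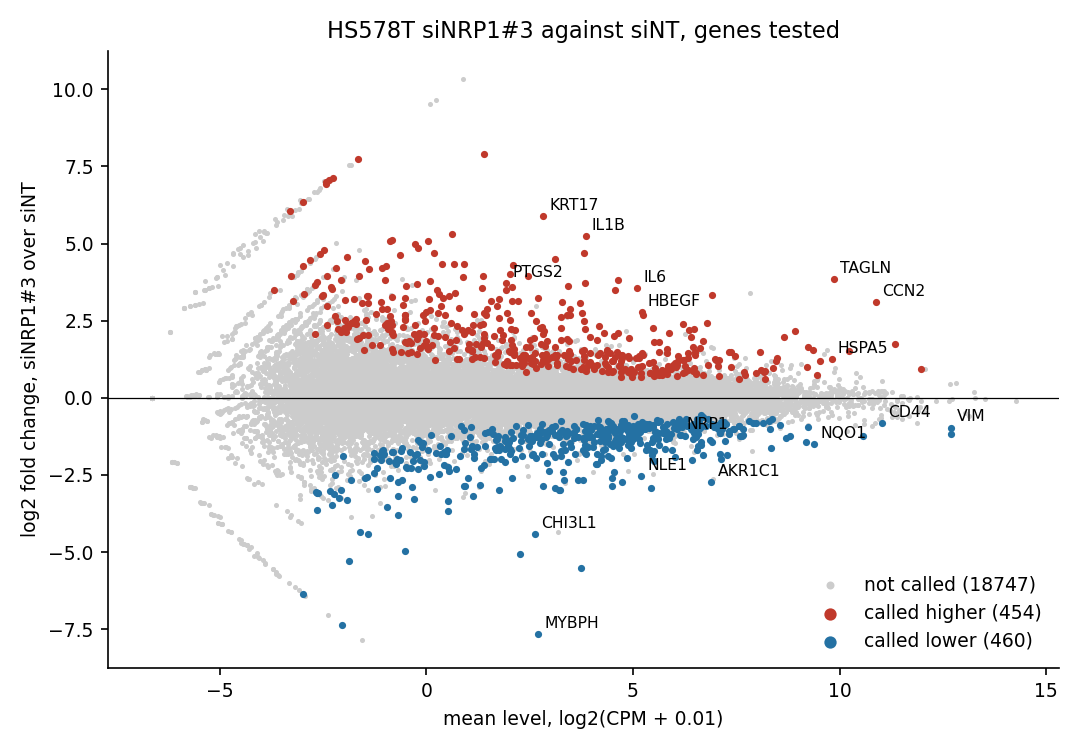
log2 fold change of siNRP1#3 over siNT in HS578T against the mean level on a log2 CPM scale, 1 point per gene tested. Red and blue points are the 454 higher and 460 lower genes, and names mark genes described in the text, such as CCN2 and PTGS2 above 0 and NLE1 and CHI3L1 below it.

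Of the genes around NRP1 itself, no ligand passed the test and some receptors did. Over all genes tested, 4.65% were called, 2.31% higher and 2.34% lower, which is the background for the list counts below. None of 11 ligands tested passed, with a median log2 fold change of -0.08, against 0.03 over all genes. VEGFA, the main growth factor that binds NRP1, had 232, 208 and 274 CPM against 232, 242 and 281 CPM (log2 fold change -0.08, SE 0.22, edgeR adjusted p = 0.888). The median of the ligands ran from -0.189 to 0.247 with 1 library left out, the latter without siNT replicate 1. Of 25 co-receptors and adaptors, 1 rose and 3 fell (median -0.15, and -0.302 to -0.041 with 1 library left out, the extremes without siNRP1#3 replicate 3 and 1). PDGFRA, a receptor tyrosine kinase for platelet-derived growth factor, had 32.8, 77.9 and 58.7 CPM in siNRP1#3 and 232, 243 and 198 CPM in siNT, and all siNRP1#3 values were well below all siNT values (log2 fold change -1.99, SE 0.256, edgeR adjusted p = 0.000402). It kept its call with each library left out. PLXNA1 and PLXNA4, plexins that signal for semaphorins bound to NRP1, fell with log2 fold changes of -1.22 and -2.16 (edgeR adjusted p = 0.0202 and 0.0156), and both lost the call without siNRP1#3 replicate 1, siNRP1#3 replicate 2 or siNT replicate 3 (at most 0.108 and 0.0792). MET, the hepatocyte growth factor receptor, rose (log2 fold change 1.3, SE 0.338, edgeR adjusted p = 0.0367), a call that no longer passed with any 1 of the 6 libraries left out (at most 0.107).

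YAP and TEAD are a coactivator and its DNA-binding partners that respond to cell shape and tension. Of 19 of their target genes tested, 5 rose and 1 fell, with a median of 0.48. CCN2, a secreted matricellular protein, had 2948, 3076 and 4061 CPM in siNRP1#3 and 262, 430.5 and 488 CPM in siNT, without overlap (log2 fold change 3.1, SE 0.332, edgeR adjusted p = 0.000126). CCN1, a related protein, had 1415, 1401 and 2527 CPM against 463, 567 and 831 CPM (log2 fold change 1.52, SE 0.258, edgeR adjusted p = 0.00291). ANKRD1, a nuclear ankyrin repeat protein, rose (log2 fold change 3.11, SE 0.56, edgeR adjusted p = 0.00455). F3, the coagulation starter tissue factor, rose (log2 fold change 2.1, SE 0.399, edgeR adjusted p = 0.00606), as did DLC1, a GTPase-activating protein (log2 fold change 1.23, SE 0.232, edgeR adjusted p = 0.00603). All 5 kept their calls with each library left out. FSTL1, a secreted glycoprotein, fell (log2 fold change -0.94, SE 0.246, edgeR adjusted p = 0.0375), and lost the call with any library but siNRP1#3 replicate 2 left out (at most 0.172).

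Of 18 contractile actin genes and SRF (serum response factor) targets, 5 rose and none fell, with a median of 0.93 and 16 of 18 above 0. TAGLN, an actin-binding protein of smooth muscle, had 1880, 958 and 2393 CPM against 89.1, 131 and 143 CPM (log2 fold change 3.85, SE 0.691, edgeR adjusted p = 0.00496). TPM1, a tropomyosin, had 454, 340.4 and 386 CPM against 140.3, 131 and 153 CPM (log2 fold change 1.48, SE 0.228, edgeR adjusted p = 0.00176), and ACTN1, an actin crosslinker, rose (log2 fold change 1.19, SE 0.218, edgeR adjusted p = 0.00499). These 3 kept the call with each library left out. ACTG2, the smooth muscle gamma actin, and MYH9, a non-muscle myosin heavy chain, rose, with log2 fold changes of 3.33 and 0.93 (edgeR adjusted p = 0.041 and 0.0447), and lost the call with 5 of the 6 libraries left out, all but siNRP1#3 replicate 2 (at most 0.141 and 0.175). With 1 library, or both replicate 3 libraries, left out, 2 to 6 of the 18 rose and the median lay between 0.71 and 1.11.

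Of 14 AP-1 and immediate early genes, 4 rose and 1 fell (median 0.84). ATF3, a stress-induced repressor, had 61, 45.9 and 34.6 CPM against 10.6, 15.4 and 11 CPM (log2 fold change 1.94, SE 0.27, edgeR adjusted p = 0.000714). FOSB, a subunit of AP-1, had 15.3, 13 and 11.4 CPM against 4.03, 5.13 and 3.49 CPM (log2 fold change 1.65, SE 0.312, edgeR adjusted p = 0.00603). MYC rose (log2 fold change 1.35, SE 0.262, edgeR adjusted p = 0.00718) and so did IER3, an immediate early survival factor (log2 fold change 1.55, SE 0.305, edgeR adjusted p = 0.00787). These 4 kept their calls with each library left out, and FOSL2, another AP-1 subunit, fell (log2 fold change -0.93, SE 0.239, edgeR adjusted p = 0.0354) and lost the call with any library but siNRP1#3 replicate 3 left out (at most 0.159).

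Of 23 genes of the unfolded protein and ATF4 response, 7 rose and none fell, and 19 were above 0 (median 0.72). DDIT3, the transcription factor CHOP of this response, had 70.3, 77.4 and 63.6 CPM in siNRP1#3 and 18.7, 24.2 and 17.7 CPM in siNT, with no overlap (log2 fold change 1.8, SE 0.239, edgeR adjusted p = 0.000466). HSPA5, the main chaperone of the endoplasmic reticulum, had 1074, 1186 and 1540 CPM against 442, 491 and 654 CPM (log2 fold change 1.26, SE 0.237, edgeR adjusted p = 0.0058). HERPUD1, a component of the degradation machinery of that compartment, rose (log2 fold change 1.36, SE 0.287, edgeR adjusted p = 0.0122), with an adjusted p of 0.0582 without siNT replicate 1. ATF4, the transcription factor of this response, TRIB3, a pseudokinase, and CHAC1, which degrades glutathione, also rose, with log2 fold changes of 0.74, 1.98 and 2.27 (edgeR adjusted p = 0.0425, 0.0292 and 0.0306). ATF4 lost the call with any library left out, TRIB3 with any but siNRP1#3 replicate 3, and CHAC1 without siNRP1#3 replicate 1, siNT replicate 1 or siNT replicate 3 (at most 0.166, 0.145 and 0.124). With libraries left out, 2 to 5 of the 23 rose.

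Cytokine and NF-kB target genes had the highest median of all lists, 1.49. Of 23 tested, 6 rose and none fell. IL1B, a proinflammatory cytokine, had 42.8, 19 and 22.8 CPM in siNRP1#3 and 0.483, 0.595 and 1.13 CPM in siNT (log2 fold change 5.25, SE 0.628, edgeR adjusted p = 0.000253). IL6, a cytokine of the acute phase response, had 118, 43.3 and 28.5 CPM against 5.09, 4.57 and 6.5 CPM (log2 fold change 3.55, SE 0.468, edgeR adjusted p = 0.000464). PTGS2, the inducible cyclooxygenase, had 6.93, 5.29 and 9.12 CPM against 0.483, 0.72 and 0.403 CPM (log2 fold change 3.72, SE 0.474, edgeR adjusted p = 0.000391). In these 3 genes the lowest siNRP1#3 library was well above the highest siNT library, and the calls were kept with each library left out. The MDA-MB-231 share would bring 2.33% of the rise of IL1B, 7.97% of that of IL6 and 0.63% of that of PTGS2. LIF, CXCL2 and BIRC3 rose too, with log2 fold changes of 1.38, 2.19 and 1.57 (edgeR adjusted p = 0.0278, 0.0402 and 0.0449), but the share would bring 53.2% of the rise of CXCL2 and 76.9% of that of BIRC3. CXCL2 and BIRC3 lost the call with any 1 library left out (at most 0.134 and 0.142), and LIF with any but siNRP1#3 replicate 2 (at most 0.105). After subtraction of the share 3 of the 23 genes passed, with a median of 1.11, and with libraries left out 3 or 4 passed.

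Of 20 genes on the list of MAPK feedback genes, 2 rose and 1 fell (median 0.64, and 0.399 without siNRP1#3 replicate 3). The list is a broad one, and the 2 that rose encode a growth factor and a cytokine. HBEGF, a ligand of the EGF receptor, had 48.8, 45 and 100.2 CPM against 8.34, 8.11 and 11.8 CPM (log2 fold change 2.78, SE 0.415, edgeR adjusted p = 0.00127), and IL11, a cytokine of the IL6 family, had 232, 98.4 and 234 CPM against 28.1, 35.5 and 42.2 CPM (log2 fold change 2.41, SE 0.378, edgeR adjusted p = 0.00192). ETV1, a transcription factor of the ETS family, fell (log2 fold change -1.32, SE 0.311, edgeR adjusted p = 0.0229) and passed only in the fits without siNRP1#3 replicate 2 or siNT replicate 3 when 1 library was left out (at most 0.105). Of 20 TGF-beta ligands, receptors and targets, 2 rose and 2 fell (median 0.19, and 0.03 without siNRP1#3 replicate 3). INHBA, the activin subunit, had 128, 120.1 and 156 CPM against 33.7, 24.9 and 29.3 CPM (log2 fold change 2.2, SE 0.405, edgeR adjusted p = 0.00499), and TGFBR3, the co-receptor betaglycan, had 1.26, 1.98 and 2.03 CPM against 8.79, 5.88 and 6.45 CPM (log2 fold change -1.99, SE 0.314, edgeR adjusted p = 0.00202). In these 2 genes the groups did not overlap and the call was kept with each library left out. ID3, an inhibitor of basic helix-loop-helix factors, rose (log2 fold change 1.04, SE 0.29, edgeR adjusted p = 0.0497) and LRRC32, which holds latent TGF-beta at the cell surface, fell (log2 fold change -2.03, SE 0.468, edgeR adjusted p = 0.0209). ID3 lost the call with any library but siNRP1#3 replicate 2 left out (at most 0.188), and LRRC32 without siNRP1#3 replicate 1, siNRP1#3 replicate 2 or siNT replicate 3 (at most 0.107).

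Of 25 G2/M and mitosis genes, none rose, 3 fell and all 25 had a log2 fold change below 0, with a median of -0.83. CDC25C, a phosphatase that starts mitosis, had 9.82, 11.3 and 12.2 CPM against 22.8, 26.8 and 32.4 CPM (log2 fold change -1.3, SE 0.245, edgeR adjusted p = 0.00581), and kept the call with each library left out. KIF20A, a kinesin of the spindle midzone, had 35.1, 49.7 and 60.9 CPM against 108, 129 and 192 CPM (log2 fold change -1.56, SE 0.342, edgeR adjusted p = 0.0154), and lost the call without siNRP1#3 replicate 1 or siNT replicate 3 (at most 0.0906). CCNB2, a mitotic cyclin, fell (log2 fold change -1.15, SE 0.266, edgeR adjusted p = 0.021) and lost the call without siNRP1#3 replicate 1, siNT replicate 2 or siNT replicate 3 (at most 0.110). With libraries left out the median stayed between -1.01 and -0.68 and at most 4 of the 25 fell. Of 25 G1/S and replication genes, 2 rose and 1 fell (median -0.39). With 1 library left out the median lay between -0.137 (without siNT replicate 3) and -0.749 (without siNRP1#3 replicate 3), 0 or 1 rose, and 0 to 3 fell. CDT1, which licenses replication origins, fell (log2 fold change -1.2, SE 0.302, edgeR adjusted p = 0.0319) and CCND3, a D-type cyclin, rose (log2 fold change 1.45, SE 0.325, edgeR adjusted p = 0.0174). CDT1 lost the call without siNRP1#3 replicate 1 or 2 or siNT replicate 2 or 3 (at most 0.145), and CCND3 without siNRP1#3 replicate 3 or siNT replicate 1 or 2 (at most 0.0801). In a bulk library, fewer cells of a kind and less RNA per cell cannot be told apart, and this applies to every level given here.

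Of 20 CDK inhibitors and p53 targets, 4 rose and 1 fell (median 0.42). The median was 0.081 without siNT replicate 3, 0.117 without siNRP1#3 replicate 2 and 0.773 without siNT replicate 1, and 1 rose without siNT replicate 2, 2 without siNRP1#3 replicate 3 or siNT replicate 1. SESN2, a stress-induced inhibitor of mTORC1, had 216, 113.8 and 115 CPM against 22, 40.6 and 31.3 CPM (log2 fold change 2.24, SE 0.324, edgeR adjusted p = 0.000934). CDKN2C, the CDK4 and CDK6 inhibitor p18, had 14.4, 16.6 and 26.1 CPM against 42.7, 52.4 and 88.1 CPM (log2 fold change -1.68, SE 0.292, edgeR adjusted p = 0.00352). Both kept their calls with each library left out. PLK3, a stress kinase, rose (log2 fold change 1.18, SE 0.239, edgeR adjusted p = 0.00919) and had an adjusted p of 0.0572 without siNT replicate 2. CDKN2B, the inhibitor p15, rose (log2 fold change 1.48, SE 0.405, edgeR adjusted p = 0.0466) and lost the call with any 1 library left out (at most 0.147).

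Of 19 genes of the EMT and claudin-low list, 1 rose and 3 fell (median -0.15). With 1 library left out the median lay between -0.274 (without siNRP1#3 replicate 3) and -0.015 (without siNT replicate 3), and 0 to 2 fell. VIM, the mesenchymal intermediate filament vimentin, had 4236, 4396 and 4827 CPM against 8405, 8707 and 9196 CPM (log2 fold change -0.97, SE 0.238, edgeR adjusted p = 0.0291). CD44, an adhesion receptor for hyaluronan, fell (log2 fold change -0.82, SE 0.197, edgeR adjusted p = 0.0253), and so did TWIST1, a mesenchymal transcription factor (log2 fold change -0.95, SE 0.225, edgeR adjusted p = 0.0242). ESRP2, an epithelial splicing regulator, rose (log2 fold change 1.91, SE 0.518, edgeR adjusted p = 0.0443), and the MDA-MB-231 share would bring 114.5% of this rise. VIM and ESRP2 lost their calls with any 1 library left out (at most 0.118 and 0.143), CD44 with any but siNRP1#3 replicate 2 (at most 0.116) and TWIST1 with any but siNRP1#3 replicate 3 (at most 0.107). None of 18 collagens passed (median -0.08, and -0.285 to 0.142 without siNRP1#3 replicate 3 and 2), and COL1A1 had 8200, 6226 and 10630 CPM against 6036, 5054 and 6863 CPM (log2 fold change 0.48, SE 0.316, edgeR adjusted p = 0.429). Of 27 other matrix genes, LAMA4, a laminin chain of basement membranes, fell (log2 fold change -1.89, SE 0.346, edgeR adjusted p = 0.00496). Of 10 junction and epithelial genes that define the claudin-low subtype by their low level, none passed, and their median was 1.25, which became 0.28 after subtraction of the MDA-MB-231 share.

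Of 20 NRF2 targets and glutathione genes, none rose and 4 fell (median -0.46). With 1 library left out 1 or 2 fell and the median lay between -0.53 and -0.242, the latter without siNT replicate 3, and without both replicate 3 libraries none fell. NQO1, a quinone reductase, had 407, 357 and 279.5 CPM against 913, 1046 and 1008 CPM (log2 fold change -1.51, SE 0.312, edgeR adjusted p = 0.0105) and kept the call with each library left out. AKR1C3, an aldo-keto reductase, had 4.57, 8.25 and 7.77 CPM against 46.3, 52.8 and 39.3 CPM (log2 fold change -2.74, SE 0.567, edgeR adjusted p = 0.0106), and an adjusted p of 0.0691 without siNRP1#3 replicate 1. AKR1C1 and AKR1C2 fell, with log2 fold changes of -2.75 and -2.67 (edgeR adjusted p = 0.0437 and 0.0343), and both lost the call with any 1 library left out (at most 0.130 and 0.104). These 3 genes are near copies of each other, and reads may have been split between them. Of 26 glycolysis and hypoxia genes, 2 rose and 1 fell (median 0.11). With 1 library left out 0 to 3 rose and the median lay between -0.085 (without siNRP1#3 replicate 3) and 0.316 (without siNT replicate 3). Those that rose were SLC2A3, a glucose transporter (1.05 (SE 0.24, edgeR adjusted p = 0.0194)), and ANKRD37, a target of hypoxia inducible factor (1.22 (SE 0.279, edgeR adjusted p = 0.0193)). CA12, a carbonic anhydrase, fell (log2 fold change -1.36, SE 0.332, edgeR adjusted p = 0.0278). SLC2A3 lost the call without siNRP1#3 replicate 1, siNT replicate 1 or siNT replicate 2, ANKRD37 kept it only without siNRP1#3 replicate 2 or siNT replicate 2, and CA12 only without siNRP1#3 replicate 3 or siNT replicate 2 (at most 0.0966, 0.0774 and 0.134). Of 28 cholesterol and fatty acid genes 1 rose, so 3.57% were called, near the 4.65% of all genes. It was HSD17B7, a sterol reductase (0.93 (SE 0.235, edgeR adjusted p = 0.0327)). This call was kept only without siNRP1#3 replicate 1 when 1 library was left out (at most 0.103). None of 13 mitochondrially encoded genes passed (median -0.63, and -0.35 without siNRP1#3 replicate 3).

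Of 23 interferon-stimulated genes, 1 rose and none fell, so 4.35% were called, near the 4.65% of all genes. The median of the list was 0.50, and 0.15 after subtraction of the MDA-MB-231 share. None of 17 genes of double-stranded RNA sensing and RNA interference passed (median 0.01). Neither the 2 leukocyte nor the 5 endothelial markers with enough counts to be tested passed.

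**Figure D3:**
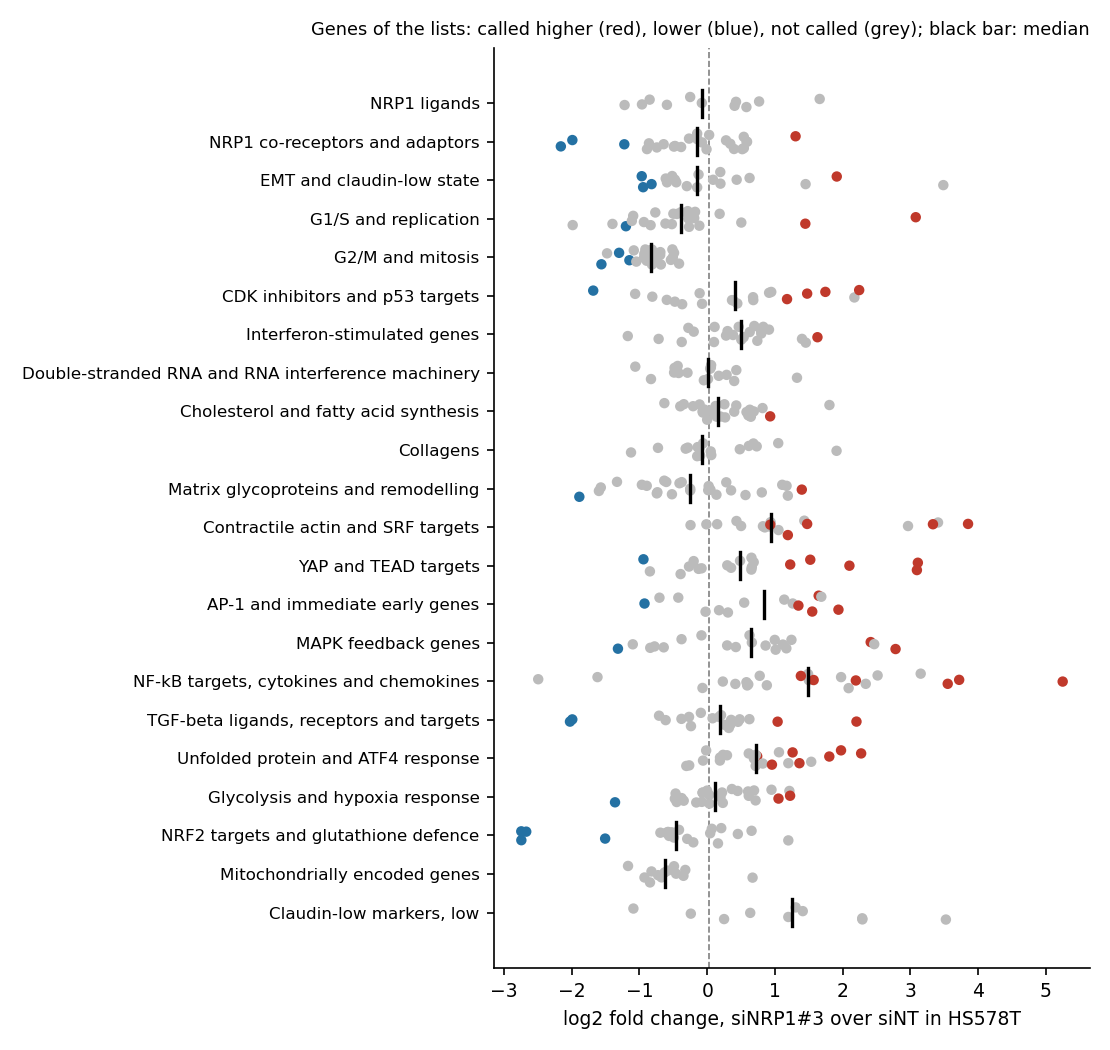
log2 fold change of siNRP1#3 over siNT in HS578T for each tested gene of the lists with at least 10 genes tested, red where higher, blue where lower and grey where the test was not passed. Black bars are list medians, from -0.83 for G2/M to 1.49 for NF-kB targets, and the dashed line is the median over all genes, 0.03.

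Most of the largest changes were in genes near the limit of detection. Of the 12 largest rises chosen by rule, 10 had a siNT mean under 0.1 CPM, and of the 12 largest falls 8 had a siNRP1#3 mean under 0.1 CPM, so no fitted fold is given for these. Of the rises with higher levels, KRT17, a keratin of basal epithelia, had 22.8, 4.47 and 14.7 CPM against 0.0966, 0.323 and 0.269 CPM (log2 fold change 5.88, SE 0.691, edgeR adjusted p = 0.000248), and the other was IL1B. RTP3, a receptor-transporting protein, had 0.652, 0.195 and 0.355 CPM and no counts in siNT, which makes it at least 4.95-fold higher against a floor of 3 counts per library, and it lost the call without siNRP1#3 replicate 1 or 3. Of the falls, CHI3L1, a secreted chitinase-like glycoprotein, had 0.856, 0.412 and 0.419 CPM against 19.7, 6.6 and 9.22 CPM (log2 fold change -4.42, SE 0.616, edgeR adjusted p = 0.000714). MYBPH, a myosin-binding protein, had 0.163, 0.0434 and 0 CPM against 19.1, 12.7 and 7.17 CPM (edgeR adjusted p = 0.000689). SLC14A1, a urea transporter, had 0.245, 0.456 and 0.0967 CPM against 11.8, 9.08 and 7.34 CPM (log2 fold change -5.07, SE 0.829, edgeR adjusted p = 0.00236), and GCNT3, a mucin glycosyltransferase, fell (log2 fold change -3.66, SE 0.643, edgeR adjusted p = 0.00387). KRT17, CHI3L1, MYBPH, SLC14A1 and GCNT3 kept their calls with each library left out.

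Genes whose 3′UTR holds the siNRP1#3 seed heptamer CACAAGA included a larger share of lower genes than those without it. The heptamer was searched on the mRNA strand in the 3′UTR of 1 canonical GENCODE v44 transcript of each of 14128 genes tested, and 1449 (10.3%) held it. Of these 1449, 84 (5.80%) were lower and 38 (2.62%) higher, with a median log2 fold change of -0.09. Of the 12679 genes without it, 302 (2.38%) were lower and 322 (2.54%) higher, with a median of 0.02. Of 203 genes with at least 2 heptamers, 15 (7.39%) were lower (median -0.19). The siNRP1#5 heptamer GCACTTA served for comparison, since genes that hold it have 3′UTRs of a like length. Genes with the siNRP1#3 heptamer only (1176, median 3′UTR of 2820 bases) were lower in 6.12% and had a median of -0.09, and genes with the siNRP1#5 heptamer only (1029, median 3042 bases) were lower in 2.14% and had a median of 0.03. Of the 386 lower genes with a 3′UTR, 21.8% held the siNRP1#3 heptamer, against 10.6% of the higher genes. With 1 library left out, 1.66 to 4.35% of genes with the heptamer were lower, against 0.743 to 2.18% of those without, and the medians were -0.23 to 0.00 and -0.01 to 0.05. The share was the higher one with the heptamer in each of these 6 fits. These shares are descriptions of the genes, which are not replicates, and no test was made.

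The same count was made in the other contrasts. With siNRP1#3 in SUM159PT, 16.7% of genes with its heptamer were lower against 5.87% of those without, with medians of -0.21 and -0.03. In MDA-MB-231 it was 35.9% against 15.4%, with medians of -0.29 and -0.02. There, genes with the siNRP1#5 heptamer were also lower more often, in 23.8% against 16.8% without it. Lower in MDA-MB-231 were 36.5% of genes with the siNRP1#3 heptamer only (median -0.31) and 21.3% with the siNRP1#5 heptamer only (median -0.13). In SUM159PT these were 17.4% (median -0.25) and 6.73% (median 0.003). The contrast of siNRP1#5 in HS578T shares its siNT libraries with that of siNRP1#3 in this line. In it, genes with the siNRP1#3 heptamer were lower in 7.59% against 8.53% without it, and genes with the siNRP1#5 heptamer in 12.1% against 8.06%.

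**Figure D4:**
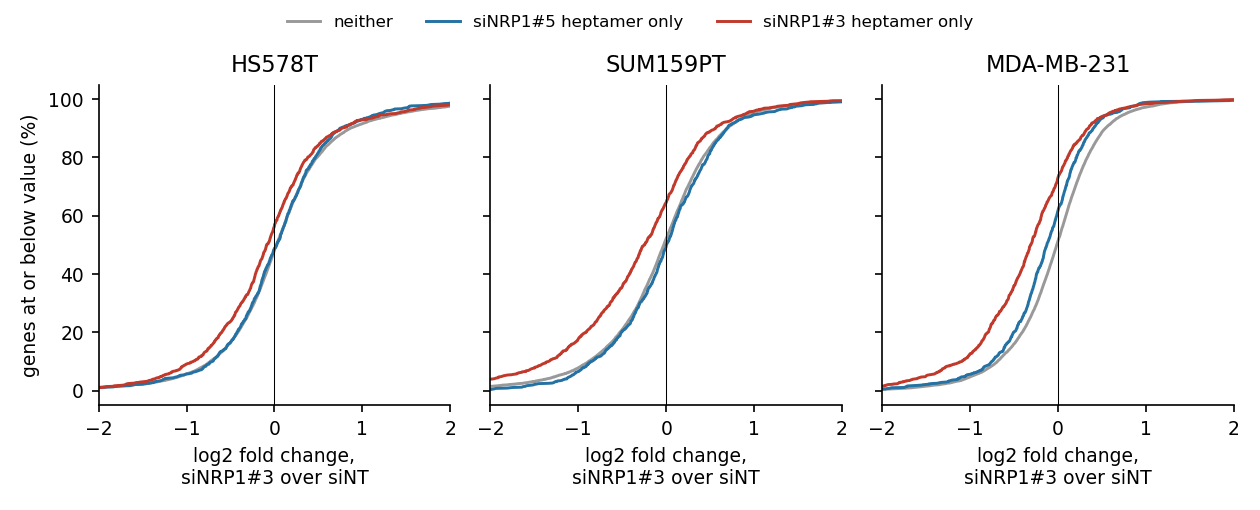
Cumulative share of genes (%) against the log2 fold change of siNRP1#3 over siNT in HS578T, SUM159PT and MDA-MB-231, for genes with the siNRP1#3 heptamer only (red), the siNRP1#5 heptamer only (blue) or neither (grey) in the 3′UTR. The red curve lies to the left of the grey one in each cell line, with HS578T medians of -0.09 with the siNRP1#3 heptamer only and 0.03 with the siNRP1#5 heptamer only.

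Among lower genes with the heptamer, 4 of the 6 with the smallest p, chosen after their values were seen, are shown with their 3′UTR site in GRCh38, the heptamer in capitals within 10 bases on either side, written along the mRNA. The BACE1 site was chr11:117288157-117288183 on the minus strand, that of CTNNB1 chr3:41239858-41239884 on the plus strand, that of KANK2 chr19:11165966-11165992 on the minus strand and that of CAMK2N1 chr1:20482712-20482738 on the minus strand.
BACE1: tgtcctccacCACAAGAgctccttgat
CTNNB1: gtgaagaatgCACAAGAatggatcaca
KANK2: ctggttgtttCACAAGAcagattctgt
CAMK2N1: aaaatgtaatCACAAGAgtgccaaata
BACE1, the beta-secretase of amyloid processing, had 23.2, 28.4 and 29.7 CPM in siNRP1#3 and 91.9, 96.7 and 119 CPM in siNT (log2 fold change -1.92, SE 0.206, edgeR adjusted p = 0.000126). CTNNB1, the adhesion and Wnt signalling protein beta-catenin, holds 2 heptamers and had 41.7, 54.5 and 56.8 CPM against 163, 137 and 145 CPM (log2 fold change -1.54, SE 0.17, edgeR adjusted p = 0.000169). In both genes the siNRP1#3 values were well below the siNT values. KANK2, a talin-binding adaptor, fell (log2 fold change -1.68, SE 0.198, edgeR adjusted p = 0.000248) and so did CAMK2N1, an inhibitor of CaM kinase II (log2 fold change -1.84, SE 0.229, edgeR adjusted p = 0.000336). These 4 genes kept the call with each library left out. These 4 genes also fell with siNRP1#3 in the other lines by edgeR, with log2 fold changes for BACE1 of -2.34 (adjusted p = 0.000178) in SUM159PT and -1.94 (adjusted p = 1.99e-09) in MDA-MB-231, for CTNNB1 of -2.01 (adjusted p = 0.000136) and -1.67 (adjusted p = 5.94e-09), for KANK2 of -0.95 (adjusted p = 0.0221) and -0.82 (adjusted p = 5.86e-05), and for CAMK2N1 of -1.94 (adjusted p = 0.00581) and -1.35 (adjusted p = 6.52e-05). The remaining 2 of the 6, EMP2, a tetraspan membrane protein, and NELFCD, a subunit of the negative elongation factor, fell in HS578T too (-1.5 (SE 0.18, edgeR adjusted p = 0.000253) and -1.3 (SE 0.203, edgeR adjusted p = 0.00192)), and kept the call with each library left out. EMP2 did not pass in SUM159PT at -0.74 (adjusted p = 0.425) and fell in MDA-MB-231 at -0.58 (adjusted p = 0.00167), and NELFCD fell in both at -1.91 (adjusted p = 0.000935) and -1.65 (adjusted p = 5.94e-09), by edgeR. With siNRP1#5 in HS578T the fold change was -0.28 (adjusted p = 0.348) for BACE1 and 0.37 (adjusted p = 0.127) for CTNNB1.

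Longer matches to the siNRP1#3 sense sequence were rare. In those canonical transcripts NRP1 aside, 2 genes shared a run of 14 bases with it, 7 a run of 13 and 39 a run of 12. One of the 7, NLE1, a ribosome assembly factor, was among the genes with the smallest p that fell. It holds sense bases 3 to 15, in capitals, in coding exon 4 at chr17:35139236-35139260 on the minus strand (GRCh38).
NLE1: agagacACCACATTTCACAtgcaag
NLE1 had 8.19, 9.33 and 15.1 CPM in siNRP1#3 and 51.2, 66.1 and 71.5 CPM in siNT, with no overlap (log2 fold change -2.53, SE 0.236, edgeR adjusted p = 5.31e-05), and kept the call with each library left out. Its fold change was -2.08 (adjusted p = 0.00118) in SUM159PT and -2.27 (adjusted p = 3.94e-08) in MDA-MB-231 with siNRP1#3, and -0.17 (adjusted p = 0.62) with siNRP1#5 in HS578T, by edgeR. SH3TC2, an adaptor protein of endosome recycling with a run of 13 bases in its 3′UTR, also fell (-1.59 (SE 0.409, edgeR adjusted p = 0.0352)), and the other 5 genes with a run of 13 were not called. Of the 39 with a run of 12, 1 was lower and 2 were higher. Of the genes with a run of 14 bases, BRWD1, a bromodomain protein with the run in its coding sequence, was not called (-0.24 (SE 0.327, edgeR adjusted p = 0.743)) and MGAM, an intestinal glucosidase with the run in its 3′UTR, rose (2.72 (SE 0.694, edgeR adjusted p = 0.0339)). SH3TC2 kept its call only without siNRP1#3 replicate 3 when 1 library was left out (at most 0.151), and MGAM only without siNRP1#3 replicate 2 (at most 0.114).

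Promoter motifs were counted for 4 lists that are named after the factors or responses concerned. RefSeq promoters (GRCh38.p14, 250 bases before to 50 after the start) were searched on both strands for 5 motifs, and the share with a motif was set against that of all 27305 promoters. The endoplasmic reticulum stress element (ERSE) was found in 4 of 21 promoters of the unfolded protein and ATF4 list (19%), against 0.0806% of all promoters. The motif TGATGNAAT, 1 form of the ATF4 element, was in none of the 21, against 1.02%. Forms of that element with another last base were not searched. Of the 301 higher genes with a promoter, 0.332% held the stress element and 1.99% TGATGNAAT. Among the 336 lower genes it was 0% and 0.595%, and among all genes tested 0.119 and 0.54%. The TEAD element GGAATG was found in 5 of 14 promoters of the YAP and TEAD list (35.7%), against 14% of all. The CArG box, the binding element of SRF, was found in 6 of 16 promoters of the contractile list (37.5%), against 1.29% of all, and the AP-1 element TGANTCA in 1 of 10 of the AP-1 list, against 7.76%. Of the higher genes, 12.0% held the TEAD element, 2.33% the CArG box and 7.64% the AP-1 element, and of all genes tested 11.2, 1.08 and 5.14%. The lower genes held them in 8.93, 2.08 and 5.95%, so the share with a CArG box was similar in both directions. A match is a description of the sequence only. For HSPA5 and CCN2, which rose with every library left out, the 250 bases before the start are shown with the matches in capitals, for HSPA5 chr9:125241344-125241593 with 1 stress element and for CCN2 chr6:131951373-131951622 with 3 TEAD elements, both on the minus strand.
HSPA5: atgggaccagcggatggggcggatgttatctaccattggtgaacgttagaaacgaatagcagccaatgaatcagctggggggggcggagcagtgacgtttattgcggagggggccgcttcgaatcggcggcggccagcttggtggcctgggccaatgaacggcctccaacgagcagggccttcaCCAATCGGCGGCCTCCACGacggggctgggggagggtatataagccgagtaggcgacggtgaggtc
CCN2: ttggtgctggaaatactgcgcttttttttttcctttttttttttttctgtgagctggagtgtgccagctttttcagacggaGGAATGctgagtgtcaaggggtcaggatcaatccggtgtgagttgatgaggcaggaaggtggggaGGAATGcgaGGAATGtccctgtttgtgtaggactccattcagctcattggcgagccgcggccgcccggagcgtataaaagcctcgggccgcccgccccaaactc

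Between the siRNA sequences in HS578T, siNRP1#3 and siNRP1#5 differed in many genes, and the siNRP1#5 libraries carried more of the MDA-MB-231 markers. SUM159PT markers were also measured, 22 genes at 20 CPM or more in SUM159PT shNT and at most 0.5 CPM in shNT of the other lines. Their median level in siNRP1#5 replicate 2 was 5.21% of that in SUM159PT siNT, and at most 0.0931% in all other HS578T libraries. The part of SUM159PT RNA in the differences was not tested. Directly compared, 1754 of 19661 genes (8.92%) were higher and 1810 (9.21%) lower with siNRP1#3 than with siNRP1#5. Against siNT, to which both were compared, 3667 genes (18.7%) differed with siNRP1#5, 1989 of them higher (10.1%). The part of MDA-MB-231 RNA in these calls was not counted. NRP1 was lower with siNRP1#5 (-2.66 (adjusted p = 3.68e-05)) than with siNRP1#3, and the direct difference was 1.46 (edgeR adjusted p = 0.00162). Its mean was 15.5 CPM in siNRP1#5 and 74.3 CPM in MDA-MB-231 siNT. The part of MDA-MB-231 RNA in the NRP1 level of siNRP1#5 was not tested. Several genes that rose with siNRP1#3 were higher than with siNRP1#5, CCN2 by 3.17 (edgeR adjusted p = 9.4e-05), PTGS2 by 2.97 (edgeR adjusted p = 0.000764), INHBA by 2.24 (edgeR adjusted p = 0.00225) and CCN1 by 1.81 (edgeR adjusted p = 0.000527). TGFBR3 and PDGFRA were lower with siNRP1#3 than with siNRP1#5, by -2.88 (edgeR adjusted p = 9.4e-05) and -1.68 (edgeR adjusted p = 0.000701). HSPA5 was lower with siNRP1#3 than with siNRP1#5, by -1.13 (edgeR adjusted p = 0.00498), and IL1B higher, by 2.7 (edgeR adjusted p = 0.00406). The difference did not pass for ATF3 at -0.29 (edgeR adjusted p = 0.474), DDIT3 at -0.56 (edgeR adjusted p = 0.105) and IL6 at 0.99 (edgeR adjusted p = 0.117). For these 3, the fold changes of siNRP1#5 over siNT were 2.23 (adjusted p = 0.000136), 2.36 (adjusted p = 3.68e-05) and 2.56 (adjusted p = 0.00136). The MDA-MB-231 share of the siNRP1#5 libraries would bring 12.1% of the rise with siNRP1#5 for ATF3, 5.15% for DDIT3 and 11.2% for HSPA5, and 104% for IL6 and 108% for IL1B.

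The same siRNA in the other lines gave different numbers of calls, 1737 of 20067 genes (8.66%) in SUM159PT and 4823 of 18800 (25.7%) in MDA-MB-231. In SUM159PT 3.16% of all genes were higher and 5.5% lower, and in MDA-MB-231 11.4% and 14.3%. Among genes tested in both lines, 149 of the 414 lower in HS578T (36%) were also lower in SUM159PT, where they were 14.4% of its lower genes, and 63 of the 408 higher (15.4%) were also higher, 11.9% of its higher genes. In MDA-MB-231, 216 of 383 lower genes (56.4%) were also lower, 8.48% of its own, and 152 of 391 higher genes (38.9%) were also higher, 7.61% of its own. Calls in the opposite direction numbered 2 of the lower and 11 of the higher genes in SUM159PT, and 5 and 32 in MDA-MB-231. By the test of the difference itself, over 23416 genes, the siNRP1#3 effect in HS578T differed from that in SUM159PT for 760 genes (3.25%) and from that in MDA-MB-231 for 346 (1.48%). For NRP1 neither difference passed, at 0.90 (adjusted p = 0.172) against SUM159PT and -0.48 (adjusted p = 0.627) against MDA-MB-231 by edgeR. For PDGFRA, which fell in HS578T, the siNRP1#3 fold change was -1.53 (adjusted p = 0.041) in SUM159PT and -0.82 (adjusted p = 0.684) in MDA-MB-231 by edgeR, where it did not pass in the latter. Neither difference passed, at -0.45 (adjusted p = 0.912) and -1.13 (adjusted p = 0.77).

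**Figure D5:**
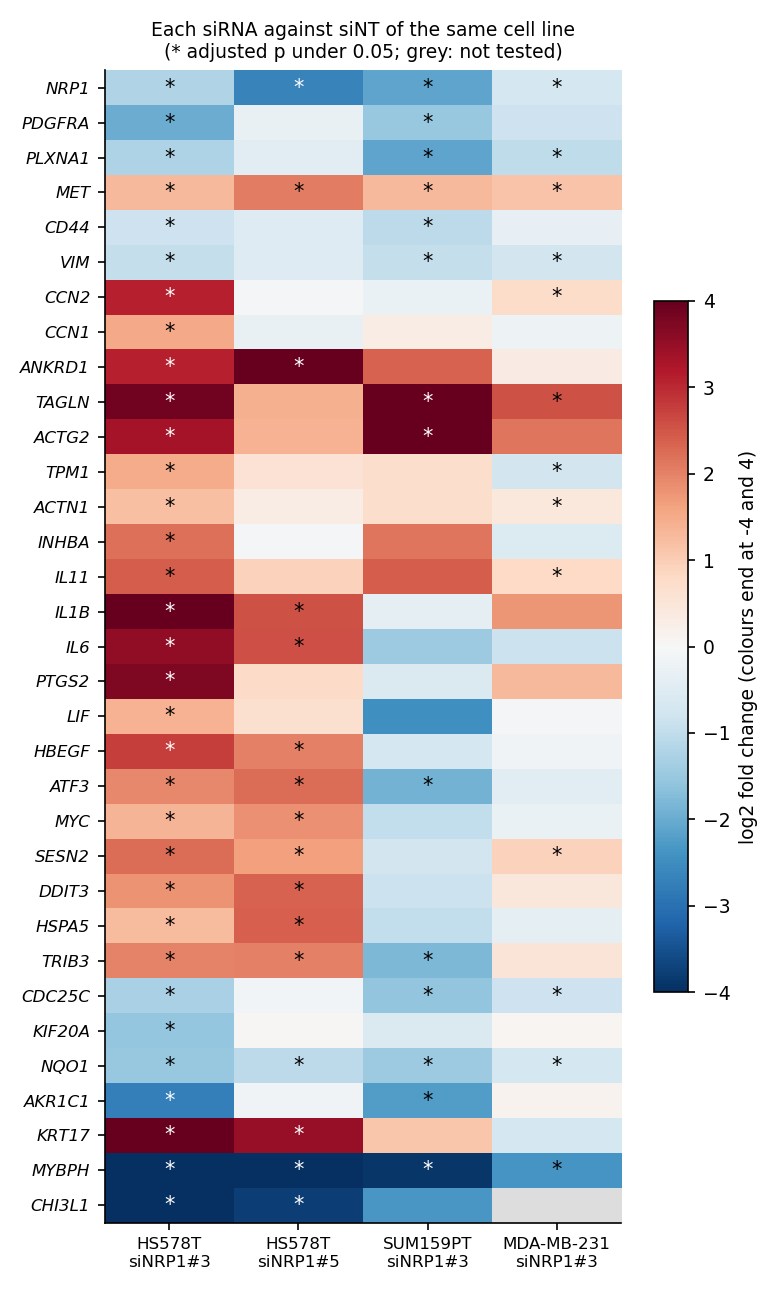
log2 fold changes over siNT (colour, ending at -4 and 4) of genes named in the text, for siNRP1#3 and siNRP1#5 in HS578T and siNRP1#3 in SUM159PT and MDA-MB-231, with a star where the edgeR adjusted p was under 0.05 and grey where a gene was not tested. Stars are on all genes in the HS578T siNRP1#3 column, which was used to choose most of them, and NRP1 has a star and a negative fold change in all 4 columns.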

How the data were processed

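Bulk polyA mRNA of HS578T cells was sequenced by the authors as strand-specific, paired-end libraries. They checked and trimmed the reads with FastQC 0.11.9 and Trim Galore 0.6.5, aligned them with STAR 2.7.2b to GRCh38 and quantified them with RSEM 1.3.3, versions as given in the submitters' processing notes. The deposited expected counts per gene and transcript are estimates that need not be whole and are not scaled for depth. The deposited TPM are scaled by the authors for length and depth. The deposited isoform percent gives each transcript's share of its gene's TPM. RSEM divides reads among overlapping transcripts and gene copies, so values of single NRP1 transcripts are estimates, and reads carried no molecular identifiers.

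Expected counts of genes were rounded and fitted with edgeR 4.0.16 (R 4.3.3; filterByExpr, TMM, robust quasi-likelihood test) over the 17 HS578T libraries in 6 groups, which share 1 estimate of the spread. Benjamini-Hochberg adjustment was made over 19661 genes, and an adjusted p under 0.05 counted as a call. A fit of the same kind over 52 libraries in 18 groups (23416 genes) tested the difference between cell lines. SUM159PT and MDA-MB-231 were fitted alone for their own fold changes. TPM were compared by two-sided exact permutation tests on log2(TPM + 0.1), and isoform percent on its own scale. The level that MDA-MB-231 RNA would bring is the median marker share of a library times the MDA-MB-231 siNT level. Sites and 3′UTRs came from GENCODE v44 and promoters from RefSeq (GRCh38.p14). The authors quantified against a later release, GENCODE 48, and the 14 NRP1 transcript identifiers were found in the deposited values. DESeq2 1.42.0, edgeR with RLE size factors, no filter on low counts, other sets of groups, a replicate block, libraries left out, subtraction of the MDA-MB-231 share and omission of genes high in MDA-MB-231 were tried as alternatives.

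The genes and lists were chosen with earlier results of these data known. Named were NRP1, then the 12 largest changes in each direction among called genes with an approved name, no overlap and at most 25% of the rise brought by MDA-MB-231 RNA, then up to 6 called genes of each list by adjusted p (up to 2 with the highest CPM where none was called), and up to 5 called genes with over 50% brought. Genes that this rule would name and the text does not are not reported here. Other genes are named as chosen after their values were seen. The test was run on simulated counts of this comparison over 19661 genes, where it called 14% of 100 genes changed by 1 on the log2 scale and 66% of 100 changed by 2, with 4 false among 84 calls. Replicates were no copies of each other (chi-square per degree of freedom of at least 38.7 between any pair of a group). Sequences and plots were handled in Python 3.11.15 with pandas 2.3.3, matplotlib 3.10.9 and numpy 2.4.6, and permutation tests enumerated all splits in R. The number of columns of per-sample values left without a sample was 0.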

Additional observations from a re-analysis of the deposited data

Results flagged for a closer look

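The fold change of siNRP1#3 over siNT was set against the same fold change in SUM159PT and MDA-MB-231 for the 84 of 105 named genes with a mean of at least 0.1 CPM in both HS578T groups. By the edgeR test of the difference itself, 25 genes differed from SUM159PT and 18 from MDA-MB-231, 8 of them from both, against 3.25 and 1.48% of all 23416 genes. Most of these genes were named because they were called in HS578T, so a high rate of differences is built into the choice and nothing is read from it. The values below are the log2 fold change in HS578T minus that in the other line, and no cause of these differences was tested. The MDA-MB-231 share of the HS578T libraries moves with the HS578T groups, and its part in the differences was not tested.

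Of 8 genes that differed from both lines, KRT17 differed by 4.76 from SUM159PT and by 6.57 from MDA-MB-231 (adjusted p = 6.2e-05 and 1.89e-06). CCN2 differed by 3.35 and 2.38, ATF3 by 3.83 and 2.37, HBEGF by 3.48 and 2.94, and IL6 by 5.0 and 4.43. HSPA5 differed by 2.26 and 1.63, IER3 by 2.59 and 1.57, and CCDC88C by 1.93 and 2.31. In the other lines the siNRP1#3 fold change of CCN2 was -0.25 (adjusted p = 0.821) in SUM159PT and 0.73 (adjusted p = 0.00619) in MDA-MB-231, and that of HSPA5 -1.0 (adjusted p = 0.0665) and -0.35 (adjusted p = 0.101), by edgeR.

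From SUM159PT alone, stress response genes differed, with CHAC1 at 4.33, TRIB3 at 3.78, SESN2 at 2.99, DDIT3 at 2.67, ATF4 at 1.88, PLK3 at 1.77 and HERPUD1 at 1.42. Cytokine genes and their like differed as well, with IL1B at 5.61, PTGS2 at 4.29, CXCL2 at 4.29 and LIF at 3.83. The others were MYC at 2.33, CA12 at 1.54, CCND3 at 1.45 and DLC1 at 1.41, and, with a more negative effect in HS578T, SLC14A1 at -3.48 and GCNT3 at -3.09.

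From MDA-MB-231 alone, BIRC3 differed by 2.9, ANXA3 by 2.84, INHBA by 2.78, ESRP2 by 2.48, F3 by 2.34, TPM1 by 2.23, UNC13D by 1.98, CCN1 by 1.74 and ARFGEF3 by 1.68, and AKR1C3 by -2.78. For UNC13D, ANXA3, ARFGEF3, ESRP2, BIRC3, CCDC88C and CXCL2 the MDA-MB-231 share would bring 70.7, 67.4, 56.6, 114.5, 76.9, 63.8 and 53.2% of the rise in HS578T.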

How the results depend on the processing

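The number of calls depended on the tool, the filter on low counts and single libraries. Against 914 calls (454 higher, 460 lower), DESeq2 gave 1635 (846 and 789), no filter on low counts gave 1612 (840 and 772), and the fit with a replicate block gave 1274, of which 692 were lower. With 1 library left out it was 317 to 691 calls, 159 to 396 of them higher and 137 to 379 lower, and without both replicate 3 libraries, which had the highest marker share of their groups, 319 (153 and 166). These fits have fewer samples. RLE size factors, only 2 groups or the 3 siRNA groups fitted, subtraction of the share, omission of genes at 5 times the siNT level in MDA-MB-231 and omission of siNRP1#5 from the fit gave 663 to 1213. The NRP1 fold change was -1.29 to -1.11 with 1 library left out and no longer passed at -1.11 without siNRP1#3 replicate 1, at -1.23 after subtraction of the share and at -1.19 without both replicate 3 libraries. The sign changed for 4 genes that never passed, VEGFA (-0.189 to 0.010 with 1 library left out), XPO5 (-0.009 to 0.154), PTPRC (-2.10 to 3.45) and, without both replicate 3 libraries, MT-CO2 (0.037). The fit without both replicate 3 libraries, the fit without siNRP1#5, and subtraction combined with 2 groups were chosen after seeing the data. So were the markers not expressed in SUM159PT, the SUM159PT markers not expressed in MDA-MB-231 and the transcript test.

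Genes that differed between cell lines numbered 436 to 721 for SUM159PT and 162 to 337 for MDA-MB-231 with 1 HS578T library left out. Same-numbered replicates of the groups correlated at -0.029, 0.195 and 0.479 in their deviations, and those with unlike numbers at -0.511 to 0.429. The numbers were not taken to pair the samples, and whether the replicate 3 libraries share a batch was not tested. With the replicate block the NRP1 transcript differences of -4.0 and 0.72 and the isoform difference of 45.7 each had an exact p of 0.25, the smallest possible. The block kept 905 of the 914 calls. Depth limits genes at few counts, since 3 counts in a library amounted to 0.081 CPM.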

Other observations

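Keratin genes, which encode the intermediate filaments of epithelial cells, were looked at after KRT17 was seen among the largest rises, so this family was chosen after its values were seen. Of 21 keratin genes tested, 10 rose and none fell by edgeR, against 2.31 and 2.34% of all genes, and the median log2 fold change was 1.98 (1.71 to 2.44 with 1 library left out, when 8 to 10 rose, and 2.36 after subtraction of the MDA-MB-231 share). KRT81, a hair keratin, had 62, 36.4 and 32.1 CPM in siNRP1#3 and 4, 4.42 and 3.2 CPM in siNT (log2 fold change 3.49, SE 0.443, edgeR adjusted p = 0.000391). KRT34, another hair keratin, had 53.8, 27.6 and 58.4 CPM against 1.9, 3.2 and 4.86 CPM (log2 fold change 3.81, SE 0.533, edgeR adjusted p = 0.000736). KRT15, a keratin of basal epithelia, had 33.4, 30.5 and 31.1 CPM against 11.7, 12.4 and 10.8 CPM (log2 fold change 1.44, SE 0.233, edgeR adjusted p = 0.00229), and KRT7, a keratin of simple epithelia, had 43.1, 21 and 31.1 CPM against 4.64, 6.6 and 10.8 CPM (log2 fold change 2.11, SE 0.363, edgeR adjusted p = 0.00331). In these genes the groups did not overlap and the calls were kept with each library left out.

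KRT8 and KRT18, keratins of luminal cells, did not pass, with 186, 148 and 184 CPM against 197, 221 and 194 CPM for KRT8 (log2 fold change -0.24, SE 0.378, edgeR adjusted p = 0.785) and 108, 101 and 163 CPM against 55.9, 83.3 and 101 CPM for KRT18 (log2 fold change 0.63, SE 0.319, edgeR adjusted p = 0.282). The MDA-MB-231 share would bring 0.167% of the rise of KRT34, 1.55% of that of KRT81 and 23.5% of that of KRT7. For KRT80, which was also called, it would bring 45.7%. For KRT18 and KRT19, which were not called, it would bring 44.6 and 76.9%. Of 17 keratins tested in SUM159PT, none rose and 2 fell with siNRP1#3, and of 14 in MDA-MB-231, 1 rose and 3 fell. With siNRP1#5 in HS578T 8 of the 21 rose, a contrast that shares the siNT libraries. For 4 of these 8 the MDA-MB-231 share of the siNRP1#5 libraries would bring over 50% of the rise. KRT15 and KRT79 fell with siNRP1#5, with log2 fold changes of -0.77 and -1.44 (edgeR adjusted p = 0.0293 and 0.00567). KRT3 fell too, at a siNRP1#5 mean under 0.1 CPM (edgeR adjusted p = 0.043). KRT81, KRT83 and KRT86 are near copies of each other, and reads may have been split between them.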
